A study of Mus musculus with 27 samples.

Results

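Desmosomes are the spot-like junctions that rivet neighbouring epithelial cells together and, on the inside of the membrane, hold the intermediate filaments. The 10 desmosome genes described here are the desmosomal cadherins Dsg2 and Dsc2, the armadillo proteins of the plaque Jup, Pkp1, Pkp2 and Pkp3, the plakins Dsp, Ppl and Evpl, and Perp. They were taken by gene symbol, with earlier results of these data known, and all 10 were found among the 24953 genes of the expression table. Their RNA was followed in 3 libraries each of control, Runx1KO and ZebDKO mK4 cells, an immortal line from mouse kidney metanephric mesenchyme.

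In a desmosome, desmogleins and desmocollins reach across the gap between cells and bind each other. Their tails are held by plakoglobin (Jup) and the plakophilins, and desmoplakin (Dsp) links this plaque to keratins. Zeb1 and Zeb2 are repressors known for switching off epithelial genes through E-box sequences, and Runx1 is a transcription factor that binds DNA through its Runt domain.

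Control cells were the parental mK4 line, labelled WT. Runx1KO cells were clones of that line in which a pair of guide RNAs with Cas9 had removed the third exon of Runx1, which holds the start codon used in these cells. ZebDKO cells were made the same way, and lacked the second exon of Zeb1 and the first exon of Zeb2. All groups grew as triplicate cultures in serum-containing medium until nearly confluent, and poly(A) RNA was sequenced. Both mutants came from transfected cells that were selected with puromycin and picked as clones. How many clones were sequenced, and whether the ZebDKO libraries were made together with the control libraries, is not given in the sources used here, so clone, batch and genotype cannot be told apart. ATAC-seq was done in 3 control and 3 Runx1KO cultures, and ChIP-seq for Runx1 and for Runx2 in 3 of each.

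Runx1 RNA stood at 18.7, 15.6 and 17.9 TPM (a transcript level scaled for gene length and library size) in control cells, at 30.3, 30.1 and 28.5 TPM in Runx1KO cells and at 9.4, 10.5 and 10.4 TPM in ZebDKO cells. A whole-gene TPM also counts reads from the exons that were left in place, so it is no check of an exon deletion. The same holds for Zeb1, at 15.1, 14.2 and 15.6 TPM in control cells and 16.8, 16.6 and 14.8 TPM in ZebDKO cells. Zeb2 was lower in ZebDKO cells, at 1.7, 1.8 and 1.6 TPM against 5.5, 4.9 and 5.2 TPM. The paper reports the deletions by PCR, and Western blots without Runx1 protein in Runx1KO and without Zeb1 protein in ZebDKO cells. For Zeb2 it had no antibody that worked. In Runx1KO cells both repressors were nearly gone, with Zeb1 at 0.1, 0.2 and 0.2 TPM and Zeb2 at 0.2 TPM in each library.

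Libraries of a group correlated at 0.994 to 0.996 (Pearson's r over genes, log2(TPM+1)) and libraries of different groups at 0.912 to 0.927, and none stood apart from its group. Of 10 metanephric mesenchyme markers, 5 (Six2, Wt1, Hoxd11, Cited1 and Meox1) were under 1 TPM in every library. Pax2, Sall1, Osr1, Eya1 and Gdnf were present, and the list summed to 455.7 to 469.7 TPM in control, 499.9 to 574.1 TPM in Runx1KO and 324.5 to 349.4 TPM in ZebDKO cells. Osr1 and Gdnf went from 66.4 and 12.7 TPM in control cells to 0.4 and 0.1 TPM in Runx1KO cells. Of the 5 markers tested as described below, Osr1, Eya1 and Gdnf were called lower in Runx1KO than in control cells, and in ZebDKO cells Osr1 was called lower and Gdnf higher. Over all genes 5.10% were called lower in Runx1KO cells, and 7.28% lower and 7.49% higher in ZebDKO cells. Osr1 and Gdnf were under 1 TPM in every Runx1KO library, so they had to differ there. The part of these markers in the changes of desmosome genes was not tested. Summed markers of leukocytes (1.8 to 3.4 TPM), endothelium (1.0 to 5.8 TPM), epidermis (4 of 5 in the table, 0.9 to 3.2 TPM) and heart muscle (1.7 to 6.3 TPM) were low in all 9 libraries, with Cdh5 called lower in Runx1KO and Tnnt2 higher in ZebDKO than in control cells. Tnnt2 was under 1 TPM in every control library, so it had to differ there. In bulk RNA, fewer cells of a type and less RNA per cell cannot be told apart.

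The stretches of DNA that the chromatin results below turn on are shown first, as mm9 sequence written along the gene. The Perp promoter (chr10:18564627-18564876, plus strand) and the Evpl promoter (chr11:116099392-116099691, minus strand) end at the base before the gene start. The Jup upstream region (chr11:100264109-100264408, minus strand) is the far part of a region that opened in Runx1KO cells. The Evpl intron region (chr11:116090242-116090391, minus strand) holds the only Grhl match among the opened regions of these genes. The Dsp promoter (chr13:38242947-38243196, plus strand) is shown for contrast, since it does not lie in an opened region. Capitals mark matches, on either strand, to the Zeb E-boxes CAGGTG and CAGGTA, the Grhl motif AACNGGTT, the AP-1 motif TGANTCA and the Runx motif TGTGGT.
Perp promoter: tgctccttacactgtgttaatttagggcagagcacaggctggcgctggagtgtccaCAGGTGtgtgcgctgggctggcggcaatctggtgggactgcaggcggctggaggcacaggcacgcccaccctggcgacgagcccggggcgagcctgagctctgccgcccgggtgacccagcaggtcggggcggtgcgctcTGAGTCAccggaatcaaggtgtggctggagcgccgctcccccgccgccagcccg
Evpl promoter: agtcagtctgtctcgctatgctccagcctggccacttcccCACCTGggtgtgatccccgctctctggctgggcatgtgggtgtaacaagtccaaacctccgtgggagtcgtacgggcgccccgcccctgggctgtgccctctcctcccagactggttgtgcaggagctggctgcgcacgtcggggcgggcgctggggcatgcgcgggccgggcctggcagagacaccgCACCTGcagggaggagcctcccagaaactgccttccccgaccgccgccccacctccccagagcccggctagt
Jup upstream region: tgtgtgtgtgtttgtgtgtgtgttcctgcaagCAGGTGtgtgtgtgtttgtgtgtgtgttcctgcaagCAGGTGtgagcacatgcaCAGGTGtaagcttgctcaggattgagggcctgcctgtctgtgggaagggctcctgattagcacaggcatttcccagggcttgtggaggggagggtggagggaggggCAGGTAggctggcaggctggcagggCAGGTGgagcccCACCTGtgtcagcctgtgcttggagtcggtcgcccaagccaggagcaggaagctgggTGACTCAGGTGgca
Evpl intron region: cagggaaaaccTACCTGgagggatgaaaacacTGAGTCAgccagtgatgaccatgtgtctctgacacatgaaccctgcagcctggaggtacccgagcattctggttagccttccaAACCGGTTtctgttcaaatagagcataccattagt
Dsp promoter: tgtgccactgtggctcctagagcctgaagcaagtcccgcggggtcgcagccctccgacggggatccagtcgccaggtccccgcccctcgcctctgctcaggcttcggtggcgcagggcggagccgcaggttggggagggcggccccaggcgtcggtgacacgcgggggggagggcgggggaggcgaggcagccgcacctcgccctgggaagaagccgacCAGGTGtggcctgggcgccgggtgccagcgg

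The desmosomal cadherins were low or at 0 at the RNA level in every group. Dsg2, the desmoglein of simple epithelia, was listed at 0 in all 9 libraries. Dsc2, its usual desmocollin partner, was listed at 0 in 8 libraries and at 0.1 TPM in 1 Runx1KO library. The deposited table of 6 libraries, which has 2 decimals, gives Dsc2 at 0.02, 0.02 and 0 TPM in control and 0.07, 0.07 and 0.04 TPM in Runx1KO cells, without overlap and without a test at these levels. The other cadherins of the family were also low: Dsg1a, Dsg1b, Dsg1c, Dsg3, Dsg4, Dsc1 and Dsc3 were under 1 TPM in every library. The highest of them was Dsg3, a desmoglein of stratified epithelia, at 0.4, 0.6 and 0.5 TPM in ZebDKO cells, 0 TPM in control cells and 0, 0 and 0.2 TPM in Runx1KO cells.

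Of the armadillo proteins of the plaque, Jup, Pkp2 and Pkp3 rose in both mutants, as did Perp. Jup encodes plakoglobin, which is shared between desmosomes and adherens junctions. It had 72.9, 70.7 and 67.2 TPM in control cells, 219.2, 219.1 and 211.9 TPM in Runx1KO cells and 140.5, 147.7 and 151.8 TPM in ZebDKO cells. The groups did not overlap, and Jup was 3.08-fold higher than in control cells in Runx1KO cells and 2.09-fold higher in ZebDKO cells.

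Pkp2, a plakophilin of simple epithelia and heart, was at 51.0, 56.4 and 51.1 TPM in control cells, 111.7, 116.1 and 122.6 TPM in Runx1KO cells and 108.6, 115.5 and 108.8 TPM in ZebDKO cells. Both mutants were above every control library, by 2.21-fold and 2.1-fold, and overlapped each other. Pkp3, the plakophilin found in most epithelia, was almost silent in control cells, at 0.2, 0.3 and 0.3 TPM. It reached 33.6, 33.3 and 33.6 TPM in Runx1KO cells and 12.0, 11.4 and 12.5 TPM in ZebDKO cells. This was the widest relative gap of the 10 genes with a control level above 0, at 126-fold and 44.9-fold in TPM, against a control level of only 2 or 3 steps of the table's 0.1 TPM. Pkp1, a plakophilin best known from the upper epidermis, was listed at 0 in the 3 control libraries, at 0.6, 0.7 and 0.4 TPM in Runx1KO cells and at 2.6, 2.8 and 2.4 TPM in ZebDKO cells. It was the only one of the 10 genes with a higher level in ZebDKO than in Runx1KO cells beyond the test's limits.

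Among the plakins, Evpl (envoplakin, which lies beneath the membrane of stratified epithelia) was at 0.8, 0.8 and 1.2 TPM in control cells and at 10.3, 9.1 and 9.3 TPM in Runx1KO cells, 10.3-fold higher. In ZebDKO cells it was at 1.0, 1.4 and 1.2 TPM, which overlapped the control libraries. Dsp, the plakin that ties the plaque to keratins, was at 0 to 0.1 TPM in every library of every group. Ppl (periplakin, the partner of envoplakin) was likewise at 0 to 0.1 TPM. In the table with 2 decimals Dsp was at 0.01 to 0.03 TPM, Ppl at 0 to 0.09 TPM and Dsg2 at 0 in all 6.

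Perp encodes a tetraspan membrane protein of desmosomes that is known as a target of p53 and p63. Its levels were 12.0, 10.4 and 11.8 TPM in control cells, 176.5, 167.3 and 166.5 TPM in Runx1KO cells and 144.9, 151.6 and 141.6 TPM in ZebDKO cells. Both mutants lay far above the controls, by 14.9-fold and 12.8-fold, and Runx1KO lay above ZebDKO without overlap. Of the regulators it is known for, Trp53 (p53) was at 183 ± 3.92 TPM (SD, n = 3) in control, 148 ± 4.97 TPM in Runx1KO and 311 ± 23.0 TPM in ZebDKO cells, and Trp63 (p63) was at 0 to 0.1 TPM throughout.

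**Figure D1:**
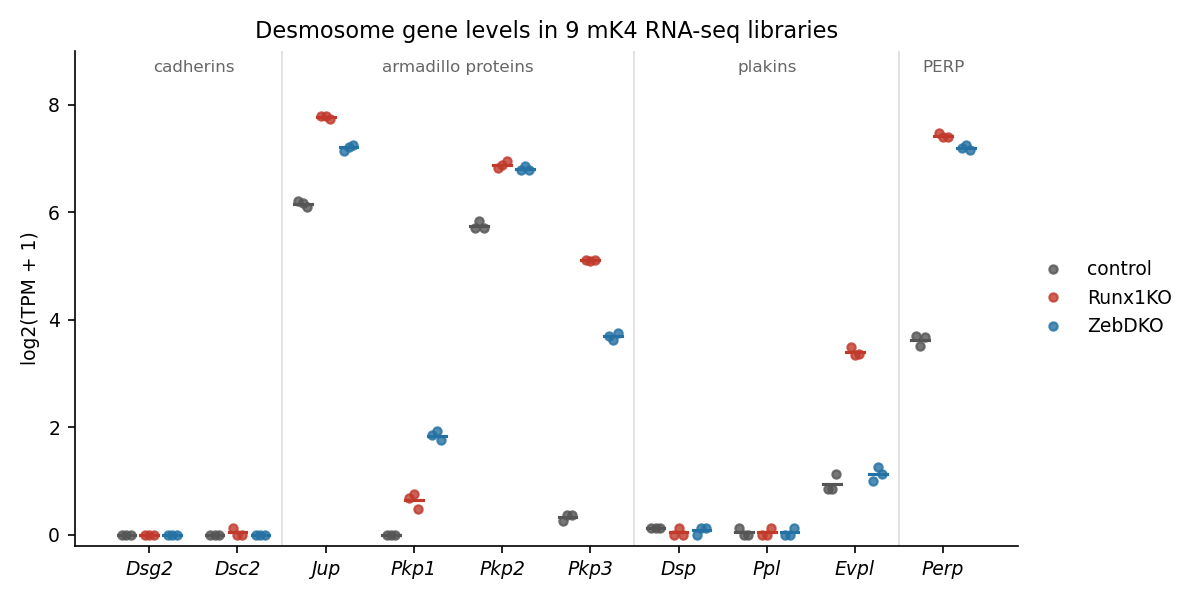
Levels of the 10 desmosome genes, ordered by role, on a log2(TPM + 1) axis, with 1 point per library (3 per group) and a line at the group mean. Dsg2, Dsc2, Dsp and Ppl lie on the floor in all groups, while Jup, Pkp2, Pkp3 and Perp are higher in both mutants than in control cells, and Evpl is clearly above control only in Runx1KO cells.

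Together the 10 genes summed to 136 ± 3.67 TPM (SD, n = 3) in control, 547 ± 4.06 TPM in Runx1KO and 420 ± 10.5 TPM in ZebDKO cells. In control cells Jup made up 51.7 ± 1.3% of this sum and Pkp2 38.9 ± 1.73%, while Perp held 8.40 ± 0.791%. Perp held 31.1 ± 0.782% of the larger sum in Runx1KO cells and 34.8 ± 0.847% in ZebDKO cells, so that Jup, Perp and Pkp2 were the leading members there. Within control cells the order by TPM of the genes above 0.1 TPM was Jup, Pkp2, Perp, Evpl and Pkp3, with no overlap between neighbours. In Runx1KO cells it was Jup, Perp, Pkp2, Pkp3, Evpl and Pkp1, again without overlap between neighbours. In ZebDKO cells Jup (146.7 ± 5.72 TPM) and Perp (146.0 ± 5.10 TPM) overlapped at the top, followed by Pkp2, Pkp3, Pkp1 and Evpl. The order of Pkp1 and Evpl was thus the reverse of that in Runx1KO cells.

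**Figure D2:**
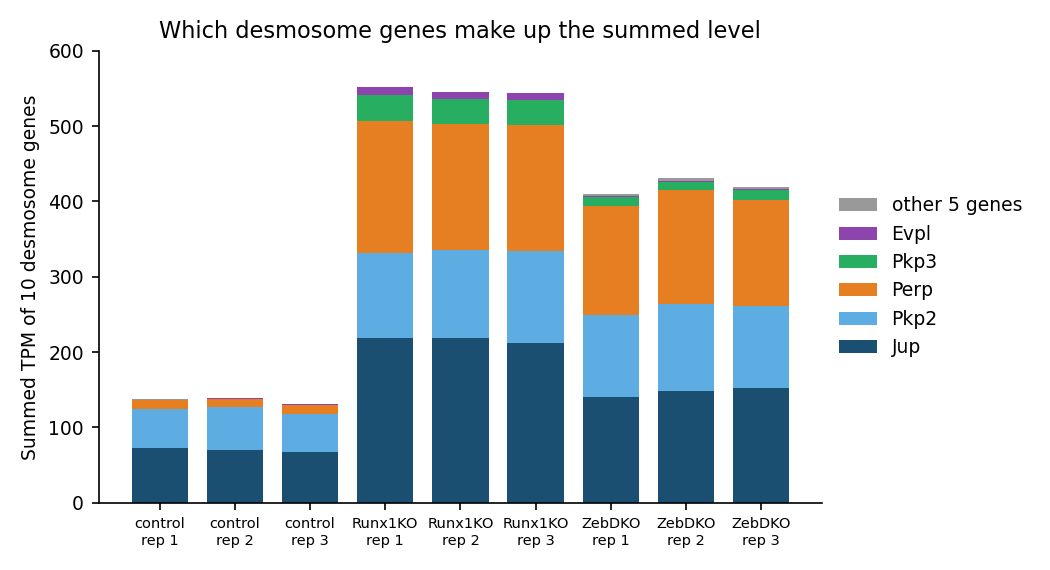
Summed TPM of the 10 desmosome genes in each of the 9 libraries, as stacked bars from 0 with 1 colour per gene (the grey part is Pkp1, Dsp, Ppl, Dsg2 and Dsc2 together). Control bars are mostly Jup and Pkp2, while in both mutants Perp is a major part beside them.

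Whether these differences exceeded the spread between libraries was tested with limma. Genes entered a comparison when 3 or more of its 6 libraries reached 1 TPM. A gene was called when its change on log2(TPM+1) was over 2-fold with a Benjamini-Hochberg adjusted p under 0.05. Of the 10 genes, 5 passed the filter on low values in Runx1KO against control cells (Jup, Pkp2, Pkp3, Perp and Evpl). Pkp3 and Evpl passed it through the Runx1KO libraries, and Pkp3, under 1 TPM in every control library, had to differ. Jup, Pkp2 and Perp, which passed it in control cells as well, were called higher, as were Pkp3 and Evpl, and of all 13067 genes tested 7.91% were called higher and 5.10% lower (13.0% in either direction). All 5 also had groups that did not overlap, as 73.7% of all genes did, and an adjusted p under 0.05 without regard to fold, as 70.5% did. Their log2 fold changes were 1.61 (SE 0.0361) for Jup, 1.13 (SE 0.0523) for Pkp2, 4.77 (SE 0.0574) for Pkp3, 3.79 (SE 0.0568) for Perp and 2.46 (SE 0.101) for Evpl. The median over all genes tested was -0.06, and the adjusted p-values of the 5 lay between 5.24e-09 (Pkp3) and 1.94e-06 (Pkp2). With a pseudocount of 0.1 in place of 1, Pkp3 came to 6.53 and Evpl to 3.25 on the log2 scale.

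In ZebDKO against control cells 6 of the 10 passed the filter. Pkp1, Pkp3 and Evpl did so through the ZebDKO libraries, and Pkp1 and Pkp3, under 1 TPM in every control library, had to differ. Jup, Pkp1, Pkp2, Pkp3 and Perp were called higher and Evpl was not called, and of 12974 genes tested 7.49% were called higher and 7.28% lower (14.8% in either direction). Groups that did not overlap were seen for 5 of the 6 and for 81.0% of all genes, and an adjusted p under 0.05 at any fold for 5 of the 6 and for 79.4% of all genes. The log2 fold changes were 1.05 (SE 0.0440, adjusted p = 8.91e-07) for Jup, 1.06 (SE 0.0499, adjusted p = 1.53e-06) for Pkp2, 3.36 (SE 0.0749, adjusted p = 5.30e-08) for Pkp3 and 3.57 (SE 0.0588, adjusted p = 1.70e-08) for Perp. Evpl had 0.19 (SE 0.123, adjusted p = 0.192). For Pkp1, at 0 in all control libraries, no fold is given, and its adjusted p was 1.85e-06. The median over all genes tested was -0.18. Median-ratio scaling took it to 0.0040, raised Jup to 1.25 and Perp to 3.76, and moved the share of higher among all called genes from 50.7% to 64.2%.

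The mutants share their controls, so they were compared with each other directly. Pkp3 (1.41, SE 0.0437, adjusted p = 2.11e-07) and Evpl (2.27, SE 0.0890, adjusted p = 5.86e-07) were called higher in Runx1KO than in ZebDKO cells on the log2 scale. Pkp1 was called lower in Runx1KO cells, at -1.20 (SE 0.104, adjusted p = 2.58e-05). It had passed the filter through the ZebDKO libraries alone, so its direction was fixed. These were 3 of 6 genes tested, and over all 13071 genes 9.20% were called higher and 6.59% lower (15.8% in either direction). Groups did not overlap for 5 of the 6, against 81.7% of all genes, and 5 of the 6 had an adjusted p under 0.05 at any fold, against 80.0%. Jup differed by less than 2-fold (0.56, SE 0.0349, adjusted p = 4.92e-06). Pkp2 did not pass the test (0.073, SE 0.0432, adjusted p = 0.157). Perp had 0.22 (SE 0.0370, adjusted p = 0.000996). Over all genes the median was 0.15, and median-ratio scaling brought it to -0.0048, Perp to 0.055 with an adjusted p of 0.166, Jup to 0.40 and Pkp2 to the opposite sign (-0.090), and moved the share of higher among called genes from 58.3% to 46.2%.

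**Figure D3:**
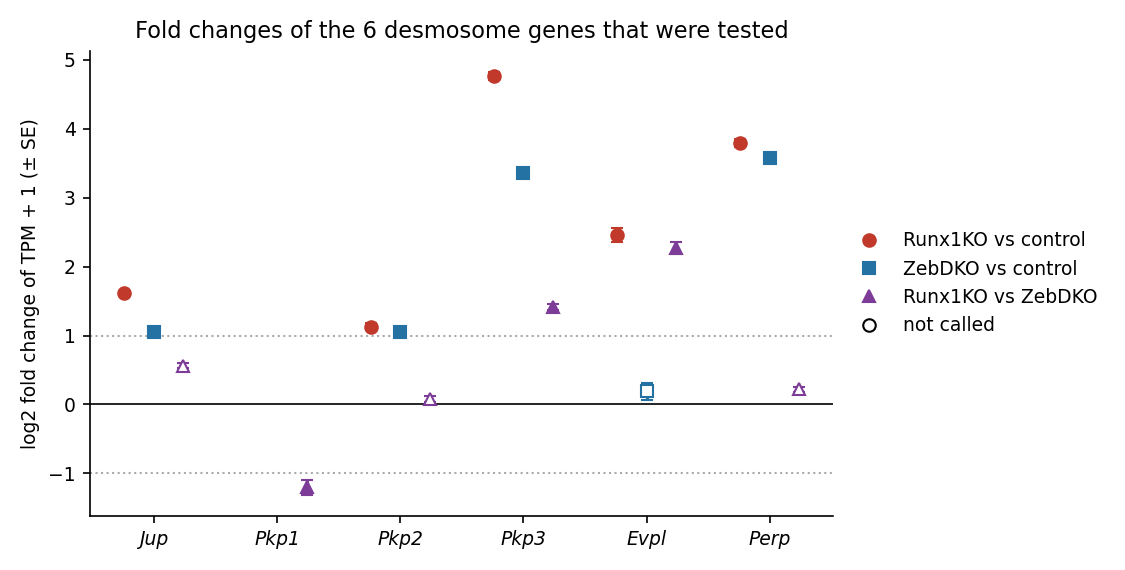
Log2 fold changes on TPM + 1, with bars for the standard error, of the 6 genes tested in at least 1 comparison. Filled symbols were called, open symbols were not, dotted lines mark 2-fold, and Pkp1 has no point against control cells because its control level was 0. Pkp3 and Perp have the highest points against control, and Evpl is open in ZebDKO and filled in Runx1KO cells.

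Genes that work beside desmosomes did not all move with them. Keratins, the filaments that desmosomes hold, were called higher in each mutant in all 7 cases tested (of 10 listed), against 7.91% and 7.49% of all genes. Krt14, Krt17, Krt18, Krt19 and Krt20 were under 1 TPM in every control library and were tested only because the mutants were high, while Krt7 and Krt8 passed in control cells too. Krt8, a keratin of simple epithelia, went from 1.8, 1.9 and 3.6 TPM in control cells to 2302.3, 2393.5 and 2362.3 TPM in Runx1KO and 1086.7, 1026.5 and 1037.8 TPM in ZebDKO cells. The mutants differed in which keratin came next. Krt19 was at 87.0 ± 0.451 TPM (SD, n = 3) in Runx1KO and 4.53 ± 0.416 TPM in ZebDKO cells, while Krt7 was at 14.9 ± 0.0577 TPM and 140 ± 3.83 TPM, and Krt17 at 3.97 ± 0.569 TPM and 138 ± 6.06 TPM. In the direct comparison Krt8 and Krt19 were called higher and Krt7 and Krt17 lower in Runx1KO cells (log2 fold changes 1.16, 3.99, -3.14 and -4.81). Under median-ratio scaling Krt8 fell just short of the 2-fold limit, at 0.999. Krt14 was also called higher in Runx1KO than in ZebDKO cells. Vim, the filament of mesenchymal cells, remained the most abundant listed filament, at 2803 ± 73.8 TPM in control, 2806 ± 33.5 TPM in Runx1KO and 2089 ± 21.6 TPM in ZebDKO cells. Of the 5 listed filaments that are not keratins, Des (desmin, the filament of muscle) was called lower in Runx1KO cells, as were 5.10% of all genes. In ZebDKO cells 0 were called, beside 14.8% of all genes in either direction. There limma gave all 5 an unadjusted and an adjusted p under 0.05, and 79.4% of all genes had such an adjusted p. Of these 5, Synm was under 1 TPM in every ZebDKO library, so it had to differ.

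Of the 4 other plakins, Eppk1 (epiplakin, which binds keratins) was called higher in both mutants, from 0, 0.1 and 0.1 TPM to 9.4, 11.1 and 11.3 TPM in Runx1KO and 4.2, 4.4 and 3.9 TPM in ZebDKO cells. Eppk1 was under 1 TPM in every control library, so it had to differ. Over all genes 7.91% and 7.49% were called higher. Plec, Dst and Macf1 were not called in either, though all 3 had an adjusted p under 0.05 from limma in ZebDKO cells at less than 2-fold. At any fold 79.4% of all genes had such an adjusted p. Of the partners of envoplakin in the cornified envelope, Scel, Kazn, Tgm1 and Tgm5 were called higher in Runx1KO cells (4 of 5 tested, against 7.91% of all genes). Kazn, Tgm1 and Tgm5 were under 1 TPM in every control library and passed the filter there through the Runx1KO libraries, so these had to differ. They were not tested in ZebDKO cells, so the counts of the mutants cannot be set against each other. In ZebDKO cells 0 of 2 tested were called, both with an unadjusted p under 0.05 from limma, and Scel stood 0.22 higher on the log2 scale (adjusted p = 0.00811). The other, Anxa9 (an annexin, named after its values were seen), was lower in both mutants at less than the limits of a call, at 5.67 ± 0.709 TPM (SD, n = 3) in control, 3.07 ± 0.208 TPM in Runx1KO and 2.80 ± 0.173 TPM in ZebDKO cells. Scel (sciellin, an envelope precursor) was at 23.7, 23.1 and 26.0 TPM in control, 144.1, 150.2 and 130.6 TPM in Runx1KO and 29.0, 27.2 and 28.8 TPM in ZebDKO cells. Kazn (kazrin, a periplakin-binding protein) was at 0.2 TPM in each control library, 4.20 ± 0.436 TPM (SD, n = 3) in Runx1KO and 0.867 ± 0.153 TPM in ZebDKO cells. Tgm1, the transglutaminase that crosslinks the envelope, was at 0 in control, 3.27 ± 0.252 TPM in Runx1KO and 0.967 ± 0.115 TPM in ZebDKO cells. Like Evpl, Scel, Kazn, Tgm1 and Tgm5 were called higher in Runx1KO than in ZebDKO cells, as were 9.20% of all genes. Tgm5 was under 1 TPM in every ZebDKO library, so it had to differ.

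Of 6 adherens junction genes tested in Runx1KO cells 0 were called, while limma gave all 6 an unadjusted and an adjusted p under 0.05. Over all genes 13.0% were called in either direction there, and 70.5% had an adjusted p under 0.05. The share called in ZebDKO cells was 14.8%. In ZebDKO cells only Cdh3 (P-cadherin) was called, at 94.8 ± 3.32 TPM against 44.6 ± 0.924 TPM (SD, n = 3), with 70.5 ± 0.252 TPM in Runx1KO cells. Cdh3 was named after its value was seen. Cdh2 (N-cadherin) was at 267 ± 0.656 TPM in control, 142 ± 3.11 TPM in Runx1KO and 183 ± 5.87 TPM in ZebDKO cells, below the 2-fold limit. Cdh1 (E-cadherin), also named after its values were seen, was at 0.1 TPM in each control library, 0.2, 0.1 and 0.3 TPM in Runx1KO and 0.5, 0.6 and 0.4 TPM in ZebDKO cells, too low to be tested. Cdh11, another cadherin too low to be tested and named after its values were seen, was at 0.7, 0.8 and 0.9 TPM in control cells and at 0.1, 0 and 0.1 TPM in each mutant. Of 9 further desmosomal cadherin, plakophilin and corneodesmosome genes 2 were tested and 0 called in any of the 3 comparisons. Over all genes 13.0%, 14.8% and 15.8% were called in either direction (Runx1KO and ZebDKO against control, then between mutants). Pkp4 (p0071, a plakophilin relative) was at 7.23 ± 0.351, 7.10 ± 0.265 and 10.2 ± 0.1 TPM in control, Runx1KO and ZebDKO cells. At an unadjusted p under 0.05, limma found 0 of the 2 in Runx1KO against control, 1 (Pkp4) in ZebDKO against control and 2 (Pkp4 and Cdsn) between the mutants. The counts at an adjusted p under 0.05 were the same, and 70.5%, 79.4% and 80.0% of all genes passed that limit. Cdsn was under 1 TPM in every ZebDKO library, so it had to differ between the mutants.

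Among 15 regulators of epithelial genes, Zeb1 and Zeb2 were called lower and Esrp1, Grhl2, Klf5 and Ovol1 higher in Runx1KO cells (of 12 tested). Over all genes 7.91% were called higher and 5.10% lower. Esrp1 and Grhl2 were under 1 TPM in every control library, and Zeb1 and Zeb2 in every Runx1KO library, so these had to differ. Klf5, an epithelial zinc finger factor, was at 105 ± 5.57, 213 ± 2.77 and 143 ± 8.32 TPM in control, Runx1KO and ZebDKO cells. Without control replicate 2 or 3 it fell just under the 2-fold limit in Runx1KO cells, at 0.99 on the log2 scale in each case. Grhl2, an activator of epithelial junction genes, was named after its values were seen, at 0.1 TPM in each control library, 5.0, 5.0 and 4.9 TPM in Runx1KO and 1.1, 1.4 and 0.9 TPM in ZebDKO cells. In ZebDKO cells only Zeb2 was called, of 9 tested, while 14.8% of all genes were called in either direction. Grhl2, Ovol1 and Esrp1 did not pass the filter there, so the counts of the mutants cannot be set against each other. Between the mutants Grhl1, Grhl2 and Ovol1 were called higher and Snai1, Trp53, Zeb1 and Zeb2 lower in Runx1KO cells, of 12 tested. Of all genes 9.20% were called higher and 6.59% lower. Ovol1 was under 1 TPM in every ZebDKO library, and Zeb1 and Zeb2 in every Runx1KO library, so these had to differ.

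**Figure D4:**
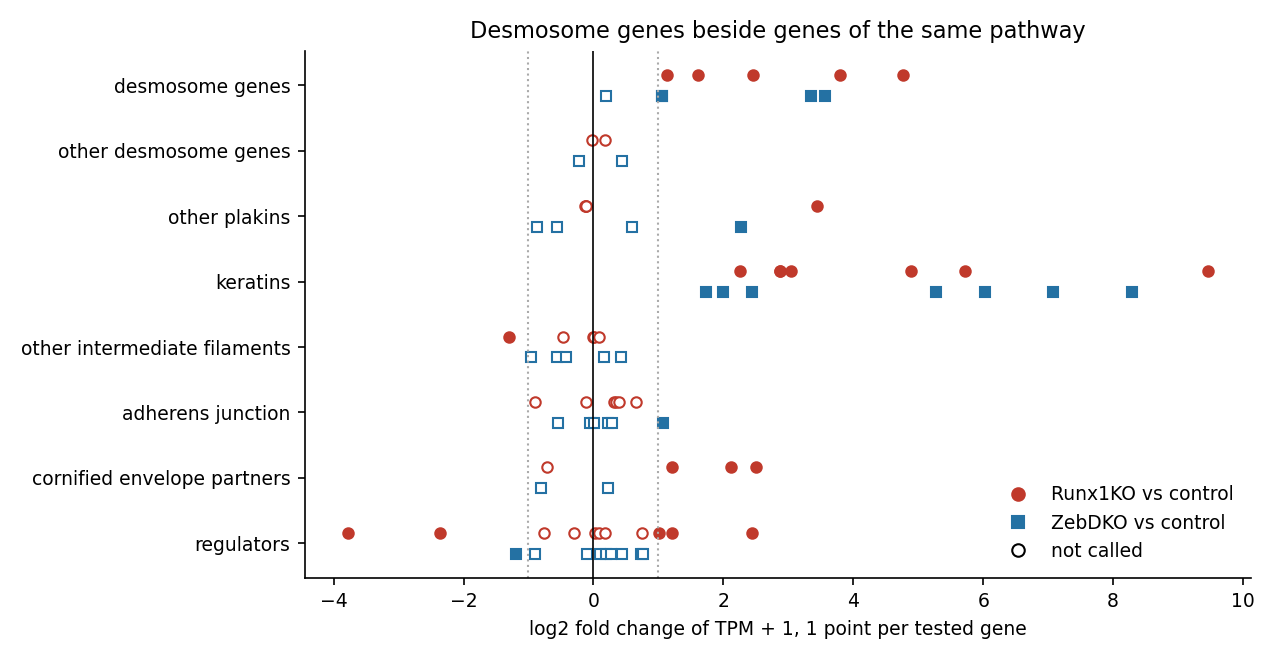
Log2 fold changes on TPM + 1 against control cells for the desmosome genes and 7 lists of related genes, with 1 point per tested gene (circles for Runx1KO, squares for ZebDKO, filled where called). Genes at 0 in all control libraries are left out. Keratins lie to the right in both mutants, 3 cornified envelope partners lie right of the 2-fold line in Runx1KO cells and 1 (Anxa9) lies left of 0 in both, and most adherens junction genes lie within the dotted 2-fold lines.

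Over the 9 libraries the genes most alike to the mean log2(TPM+1) of the 10 were Cdh16, Ucp2, Syngr2, Ttc9 and Lypd3, each at Pearson's r = 0.999. The 9 points are 3 groups of 3, so this says that these genes also stood in the order Runx1KO, ZebDKO, control, and 811 of 13368 genes had r over 0.9. Cdh16 was at 16.9, 369 and 189 TPM (means of control, Runx1KO and ZebDKO) and Lypd3 at 0.200, 44.4 and 18.8 TPM.

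Chromatin at the 10 genes was read from ATAC-seq peaks deposited in lists of opening (at least 2-fold more accessible in Runx1KO cells by the lists' own fold column), closing and stable ones. A peak was placed on a gene when it overlapped the gene body or the 10 kb before its start. By this rule 8 of the 10 genes had an opening peak, all but Pkp2 and Dsg2, beside 24.2% of the 10627 coding genes tested for expression and 66.7% of those called higher in Runx1KO cells. A closing peak lay at 2 of the 10 (Jup and Ppl, against 19.5%) and a stable peak at 7 of the 10 (against 92.7%). These shares, and those given below for other peaks, are over genes that passed the filter in Runx1KO against control cells. Dsp, Pkp1, Dsg2, Dsc2 and Ppl did not pass it, so the shares are no measure for genes at such low levels. Peaks had been kept when found in at least 2 of 3 replicates, and the lists hold no value per culture to test. The series has ATAC-seq of control and Runx1KO cells only, and none of ZebDKO cells.

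At Perp, Evpl, Jup and Pkp3 an opening peak covered the start of the gene or of a transcript. At Perp a single peak (chr10:18564317-18565263) covered the start, and at Evpl a peak (chr11:116099022-116099841) did so as well, with another in an intron (chr11:116090237-116090695). Jup had 4 opening peaks, the widest of them over its start (chr11:100258215-100259632, 1418 bp), another 5145 bases before it (chr11:100264037-100264408) and the others 2073 and 3848 bases into the gene. At Pkp3 an opening peak of 1681 bp covered the starts of transcripts Pkp3-004, Pkp3-001 and Pkp3-006, downstream of the outermost annotated start. An opening peak covered the gene start of 3 of the 10 genes (Jup, Perp and Evpl), beside 3.33% of all genes tested.

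Pkp2 was different. Its start lay in a stable peak, as did the starts of 76.2% of all genes tested, and it had 4 stable peaks and no opening one, although its RNA rose 2.21-fold. Some genes without RNA also had opening peaks. Dsp, at most 0.1 TPM, had 2 in introns (2601 and 19657 bases into the gene), Ppl had 2 (13741 and 35750 bases in), and Dsc2 had 1 (24959 bases in). None of these covered a coding start. The coding gene start nearest to both Dsp peaks was that of Gm10129, 2137 and 19193 bases away. Pkp1 had 1 opening peak, 27137 bases into the gene in an intron.

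All 14 opening peaks at these genes held a Zeb E-box (CAGGTG or CAGGTA, either strand) in their middle 300 bases. The share was 62.7% over 9425 opening peaks, 33.3% over 37478 stable peaks and 18.7% over 8740 closing peaks. The 14 peaks come from 8 genes and are a description, without a test. In all they held 48 E-boxes over their whole widths, of which 4 shared bases with an AP-1 match. The Jup upstream region printed above shows the densest run, with 7 E-boxes in 300 bases, the last of them sharing its first bases with an AP-1 match. An AP-1 match was present in 10 of the 14 peaks, a Runx match in 5 and a Grhl match in 1, the Evpl intron peak shown above.

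In the 300 bases around the annotated start (250 before, 50 after) 9 of the 10 genes had a Zeb E-box, all but Jup, beside 28.0% of 22362 coding gene promoters. Counted from the start, the E-boxes of Perp and Evpl stood at -194 and -72, and that of Dsp at -31. Genes that rose and genes that stayed at 0 both carried one. In the 100 bases before the start only, the count was 3 of 10 (Dsp, Dsg2 and Evpl) against 9.61% of promoters. A match to these letters is a description and not a bound site.

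**Figure D5:**
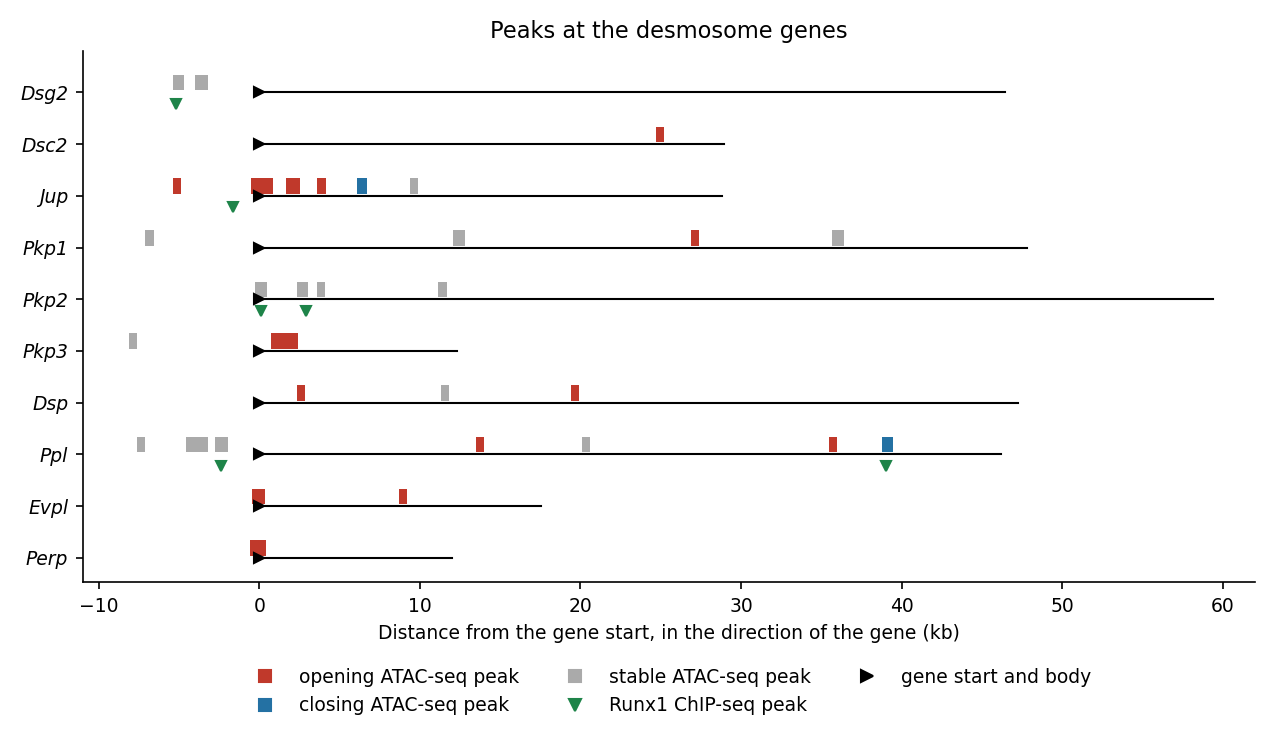
Peaks at the 10 desmosome genes by distance from the gene start in kb, with 1 line per gene from its start (arrow) to its end. Boxes above the line are ATAC-seq peaks (red opening, blue closing, grey stable, with peaks under 0.5 kb drawn 0.5 kb wide) and triangles below it are Runx1 ChIP-seq peaks in control cells. Red boxes lie over the starts of Jup, Evpl and Perp, and the start of Pkp2 is grey.

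Runx1 itself was found at 4 of the 10 genes in control cells (Jup, Pkp2, Dsg2 and Ppl), beside 33.7% of genes tested, with 6 peaks in all. Regions that the Runx1 antibody also brought down in Runx1KO cells had been removed from the list. None of the 14 opening peaks overlapped a Runx1 peak. At Jup the Runx1 peak lay 1652 bases before the start, with a fold enrichment of 5.17 and a -log10 q of 7.17, and held a Runx match. At Pkp2 Runx1 peaks lay over the start (fold 4.59, -log10 q 4.4) and 2887 bases into the gene (fold 5.18, -log10 q 5.93). Runx2, the close relative of Runx1, had peaks at the same 4 genes in control cells (against 63.5% of genes tested) and in Runx1KO cells (against 65.1%). At the Pkp2 start its fold enrichment was 7.59 in control and 6.62 in Runx1KO cells, as given for pooled replicates and without a test. Near Jup, the Runx2 peaks of control cells lay 1631 bases before the start and 3769 bases into the gene, the latter inside an opening peak, while in Runx1KO cells the single peak lay 219 bases into the gene, inside the opening peak over the start.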

How the data were processed

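RNA-seq, ATAC-seq and ChIP-seq of mK4 cells were analysed from the files the authors deposited. Per the paper, reads were trimmed (Trim Galore 0.4.2), aligned to mm9 (STAR 2.6.1e), cleared of duplicates (sambamba 0.6.8) and counted with featureCounts 1.6.2. The authors deposited TPM, in a table of 9 libraries with 1 decimal and a table of 6 libraries with 2 decimals. The levels in the latter differ by a factor that is not the same for all genes. The gene lengths and the strand setting are not given in the sources used here. TPM keeps no read number, so depth is unknown. ATAC-seq peaks were called by the authors with MACS2 2.1.2 and limited to those seen in 2 or more of the 3 replicates, and deposited in 3 classes. Columns of fold change and p beside the classes were not used. For ChIP-seq the authors deposited peaks of pooled replicates, without regions that the Runx1 antibody gave in cells lacking Runx1, with the fold enrichment (a ratio) over local background and the −log10 q of MACS2.

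Genes were fitted on log2(TPM+1) with limma 3.58.1 in R 4.3.3, letting the prior variance follow the mean level, and each comparison used its own 6 libraries. On data simulated from the control libraries alone (12245 genes), 198 of 200 changed genes and 1 unchanged gene were called. The changed genes were shifted well beyond the 2-fold limit and not drawn from the lowest levels. The simulation thus does not cover genes near that limit or near the floor. Peaks and motifs were placed on GENCODE vM1 gene models and the mm9 genome with Python 3.11.15, and no column of per-sample values was left out (0). Some promoter sequences are not reported here. Alternatives were other pseudocounts (0.1, 0.5), filters, scalings, fold limits (1.3), a replicate block, 1 fit over 9 libraries, no trend, each library left out, the table of 6 libraries, and other ways of placing peaks. Replicate numbers did not pair the libraries and were not used as pairs.

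The 10 genes and the gene lists were chosen with earlier results of these data known. Genes given with values beside them came from the 4 highest of each list by mean TPM, though not all of those were named. Values were also given for the targeted genes, genes among the 5 most alike, Trp63 and genes said to be named after their values were seen. Further genes of the lists were named without values, for their level or their test result.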

Additional observations from a re-analysis of the deposited data

Results flagged for a closer look

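The change against control differed between Runx1KO and ZebDKO cells, by limma's direct test of Runx1KO against ZebDKO at an adjusted p under 0.05, for 5 of the 6 desmosome genes tested. Over all genes tested 80.0% passed that same limit, with no limit on the fold. The differences on the log2(TPM+1) scale were 0.56 for Jup, -1.20 for Pkp1, 1.41 for Pkp3, 0.22 for Perp and 2.27 for Evpl, with Pkp1 lower in Runx1KO cells. Pkp1 passed the filter on low values through the ZebDKO libraries alone, so it had to be lower. Evpl had the largest difference of the 5, and Perp the smallest, which was 0.055 (adjusted p = 0.166) under median-ratio scaling. Batch and clone move with genotype here and cannot be told apart from it.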

How the results depend on the processing

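Of 274 refits of single desmosome genes under an alternative, 272 kept the direction and the side of the limits. The exceptions were Jup in Runx1KO against ZebDKO cells, called (0.56) at a limit of 1.3-fold, and Pkp2 in the same comparison, which turned to -0.090 (adjusted p = 0.0704) under median-ratio scaling. The counts of desmosome genes called (5 in each mutant against control, 3 between mutants) stayed within 1 of these values under every alternative run: a filter of 5 TPM gave 4 in ZebDKO against control cells and 2 between mutants, and a limit of 1.3-fold gave 4 between mutants. Leaving out each library in turn gave 5 to 5, 5 to 5 and 3 to 3. Over all genes, a limit of 1.3-fold gave 4857, 6746 and 6780 calls in place of 1699, 1916 and 2065 (Runx1KO and ZebDKO against control, then between mutants), and higher calls made up 49.7%, 33.3% and 64.5% of them in place of 60.8%, 50.7% and 58.3%. Quantile normalization made that share 47.6% between mutants.

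Same-numbered libraries of different groups did not deviate together (correlations of -0.05 to 0.04). With the replicate block, 5, 5 and 3 desmosome genes were called and 1709, 1922 and 2071 genes in all, and the block changed no call of a desmosome gene.

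The summed TPM of the desmosome genes moved to 127 in control, 533 in Runx1KO and 453 in ZebDKO cells under median-ratio scaling. It moved to 67.7 and 306 in control and Runx1KO cells in the table of 6 libraries. That table does not differ by 1 common factor. In Runx1KO cells mean Jup was at 114 TPM there against 217 TPM in the table of 9 libraries, while Pkp3 was at 33.9 and 33.5 TPM. The share of each gene in the sum thus depends on the table. Within 50 kb of the gene start 4 desmosome genes had a closing peak in place of 2. In the 100 bases before the start 3 promoters had a Zeb E-box in place of 9. The cause of these shifts was not tested beyond the settings themselves.

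Dsg2, Dsc2, Dsp and Ppl lay under the filter and were not tested in the main comparisons, and steps of 0.1 TPM are coarse at such levels. The p-values measure the spread between 3 cultures of a line, not between clones. Peak lists hold no replicate values and TPM no depth.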

Other observations

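Ppl differed from its partner Evpl in chromatin as well as in RNA. Around Ppl lay 2 opening, 1 closing and 4 stable ATAC-seq peaks, and the closing one (chr16:5093085-5093813, 39125 bases into the gene) overlapped a Runx1 peak with a fold enrichment of 4.77, while Ppl RNA stayed at 0 to 0.1 TPM. At Dsg2, listed at 0 in all libraries, both peaks before the start were stable, and the farther one, 5046 bases before it, overlapped a Runx1 peak (fold 5.65) and Runx2 peaks in control (fold 5.61) and Runx1KO cells (fold 4.13), with 2 Runx matches in each.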
